A study of Microcebus murinus with 18 samples.

Results

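Heat shock proteins and chaperones were examined in the temporal cortex of the grey mouse lemur, a small primate. The set was a list of 49 gene symbols, and its members on the array were all probe sets annotated to one of these symbols, which came to 116 of the 54613 probe sets that were not controls. Of these 116, 64 passed the filter on low values (a signal of at least 150 on at least 3 arrays), of 14567 that passed in all. For 34 of the 49 genes a probe set of their own passed. Another 5 genes (HSPA1A, HSPA1B, HSPA8, DNAJB6 and TCP1) were measured only by probe sets annotated to several genes, and 9 (HSPA2, HSPA13, HSPE1, HSPB8, BAG2, BAG3, BAG5, CDC37 and CCT5) had no probe set above the filter. AHSA1 was not found among the annotated probe sets.

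Total RNA of 18 animals was hybridized, 1 array per animal, to the human HG-U133 Plus 2.0 array, since no lemur array existed. Young adults numbered 6, of which 4 were female, and healthy old animals 10, of which 7 were female, and 2 further old females were named AD-like because of amyloid plaques in the brain. All came from 1 captive colony, the labels name no treatment, plaques were looked for in the hemisphere not used for the arrays, and the AD-like group held no male and only 2 animals. The labels give age as a category.

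Chaperones bind unfolded or partly folded proteins and help them reach, keep or regain their shape, or hand them over for degradation. HSP70 proteins act on short exposed stretches with HSP40 partners that bring the client and speed the ATP cycle, HSP90 finishes the folding of kinases and receptors with the help of cochaperones, and the CCT ring and the mitochondrial HSP60 ring enclose their clients. Small heat shock proteins hold clients without ATP, calnexin and calreticulin serve the glycoproteins of the endoplasmic reticulum, and HSF1 switches on the inducible members under stress.

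The arrays were scaled by the authors to a trimmed mean of 100, and values below are these linear signals. A human probe detects a lemur transcript according to how well the sequences match, so each probe set was compared only with itself between animals. Differences were fitted with limma on log2(signal + 16), a scale that understates changes of dim probe sets, with Benjamini-Hochberg adjustment over the 14567 probe sets. Spearman correlations between arrays ran from 0.613 to 0.890. SNAP25, a synaptic protein of neurons, averaged 20717 ± 10754 (SD, n = 6) for young adults, 27258 ± 9984 (SD, n = 10) for old animals and 17667 ± 13291 (SD, n = 2) for AD-like animals. A control RNA with a poly-A tail, dap, which is added before labelling, gave at least 333.7 on 14 arrays, but no more than 19.0 on those of AD-like F2, young adult M2 and the old males M1 and M2.

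No chaperone probe set passed the adjusted threshold of 0.05 in any of the 3 comparisons. The smallest adjusted p in limma among the 64 probe sets was 0.836 for old against young adult, 0.846 for AD-like against old and 0.9995 for AD-like against young adult animals. Of all probe sets, 0% passed in the comparison of old and young adult, 0.00686% (1 probe set) in that of AD-like and old, and 0% in that of AD-like and young adult cortex. The 95% intervals of the 34 genes had a median half-width of 0.55 on the log2 scale for old against young adult and 0.83 for AD-like against old, so that 22 and 11 of the 34 intervals lay within a log2 difference of 1 in both directions. In bulk tissue, fewer cells of a type and less RNA per cell cannot be told apart.

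Between old and young adult cortex, an unadjusted p under 0.05 was reached by 2 of the 64 chaperone probe sets (3.12%) with higher signals in old animals, beside 3.49% of all probe sets, and by 0 with lower signals, beside 2.42%. These were CCT3 and a probe set annotated jointly to DNAJB6 and TMEM135. The log2 difference was above 0 for 37 of the 64 (57.8%), beside 53.9% of all probe sets. The ranges of both groups overlapped for every chaperone probe set, whereas 0.0206% of all probe sets lay wholly higher and 0.0137% wholly lower in old animals. Over the 34 genes the median log2 difference was -0.00097, with 17 above and 17 below 0, beside 0.05 over the brightest probe set of each of 8660 genes. These shares are close to those of the whole array.

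**Figure D1:**
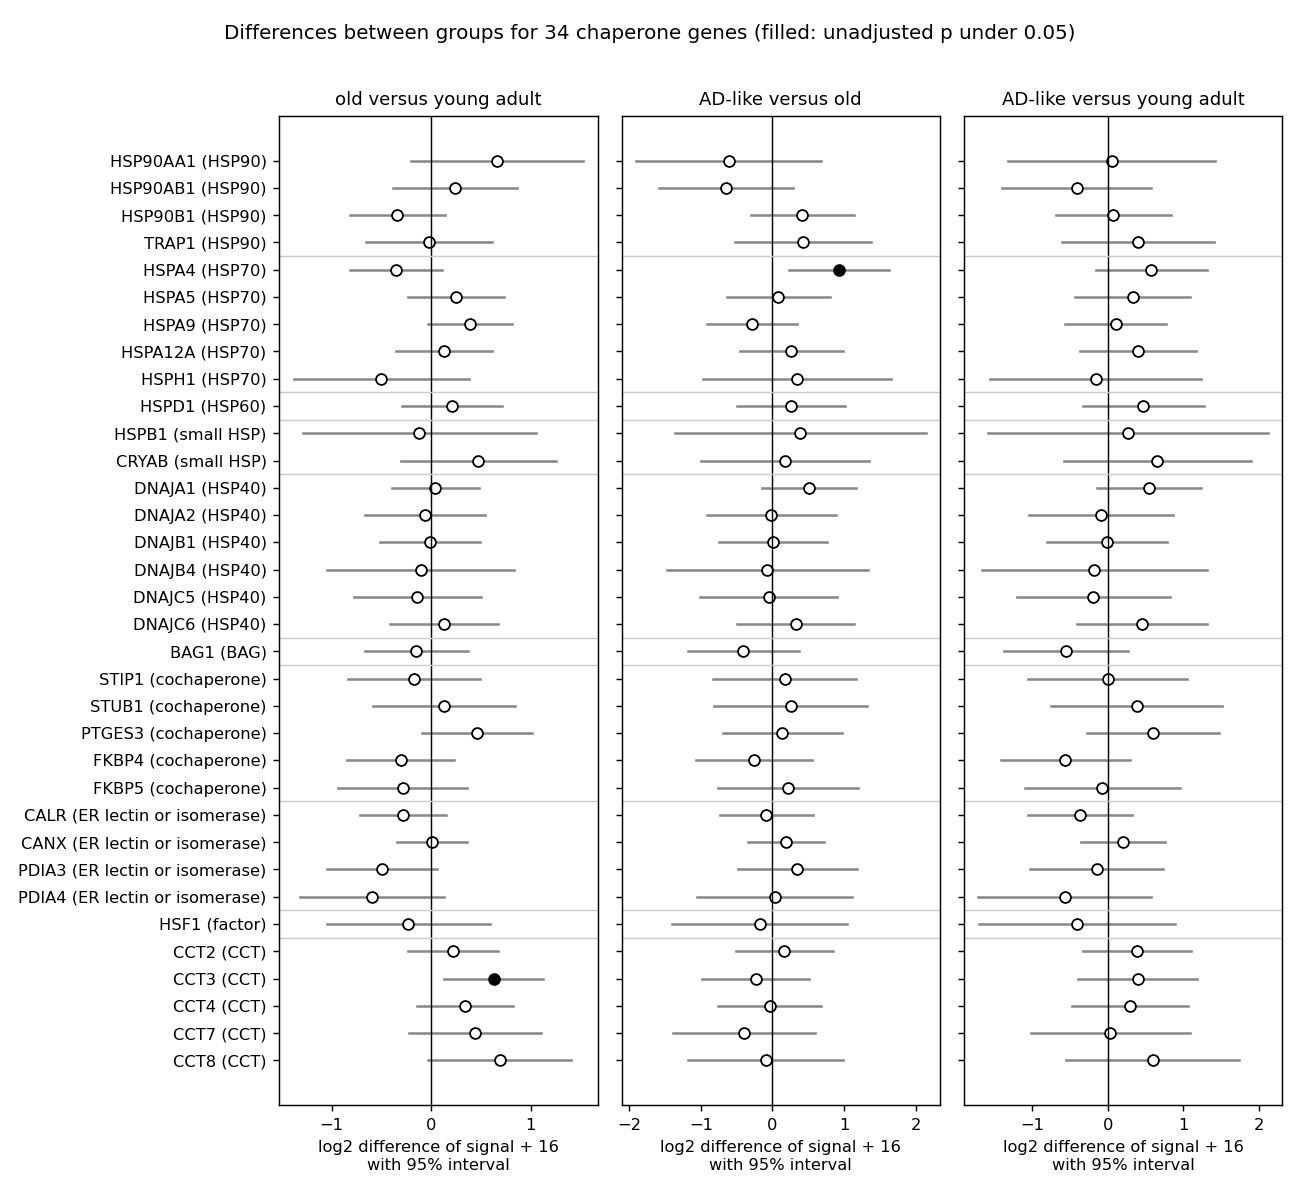
Log2 differences of signal + 16 with 95% intervals for the 34 chaperone genes with a probe set of their own, by family, in the 3 comparisons (limma, 6 young adult, 10 old and 2 AD-like animals). Filled points have an unadjusted p under 0.05, which holds for CCT3 in old against young adult and HSPA4 in AD-like against old animals, and none passed the adjustment.

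Of the cytosolic HSP90 genes, HSP90AA1 varied widely between animals of 1 group, with a residual SD of 0.88 on the log2 scale. HSP90AB1, at 0.58, was near the median of 0.60 over the brightest probe sets of all genes. HSP90AA1, the stress-inducible form of HSP90, ranged from 1617 to 11176 with a median of 6071 in young adult and from 2657 to 12616 with a median of 9573 in old animals, and was 8086 and 3332 in the AD-like pair. Most old animals lay high, 8 of the 10 exceeding the median of the young adults, but the ranges overlapped over most of their length. The log2 difference of old from young adult was 0.66 ± 0.41 (SE; adjusted p = 0.856 in limma), and that of AD-like from old was -0.61 ± 0.62 (SE; adjusted p = 0.972 in limma). The latter was 0.026 without AD-like F2, -0.95 in females alone and -1.04 with sex as a covariate. On the arrays with the poly-A control, which leave out AD-like F2, it was -0.28. A second probe set of HSP90AA1 gave 0.41 ± 0.29 (SE) for old against young adult and -0.02 ± 0.44 (SE) for AD-like against old. HSP90AB1, the constitutive form, ranged from 1899 to 6851 with a median of 2897 in young adult and from 2000 to 5952 with a median of 4419 in old animals, against 2731 and 2230 in AD-like animals. Both AD-like values lay below the old median, within the old range, with a log2 difference of -0.65 ± 0.45 (SE; adjusted p = 0.972 in limma). It was -0.91 in females alone, -0.92 with sex as a covariate and -0.72 on the arrays with the poly-A control. Among the females, only AD-like F2 lacked that control. Further probe sets of HSP90AB1 gave -0.13 ± 0.46 and -0.46 ± 0.52 (SE) for AD-like against old.

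The organelle forms of HSP90 showed no common direction. HSP90B1 of the endoplasmic reticulum, by its own brightest probe set, ranged from 406 to 594 (median 462) in young adult and from 199 to 524 (median 415) in old animals, and stood at 626 and 396 in AD-like animals. The log2 difference was -0.34 ± 0.23 (SE) for old against young adult and 0.42 ± 0.34 (SE) for AD-like against old. A pair of further probe sets annotated jointly to HSP90B1 and MIR3652 had the opposite sign in both comparisons. Their log2 differences were 0.32 ± 0.36 and 0.24 ± 0.40 (SE) for old against young adult and -0.29 ± 0.54 and -0.93 ± 0.60 (SE) for AD-like against old. On the first of them the AD-like animals had 2093 and 1229 beside an old median of 2305, and on the second 1375 and 764 beside 2319. TRAP1, the mitochondrial member, had medians of 219 and 171 in young adult and old animals and 195 and 298 in the AD-like pair, and its log2 difference of AD-like from old was 0.43 ± 0.46 (SE). In females and with sex as a covariate, 3 of 64 chaperone probe sets were lower in AD-like than old animals (unadjusted p under 0.05). Over all 14567 probe sets these were 1180 in females and 1110 with sex as a covariate, a larger share than among the chaperones. The 3 were all of HSP90 genes: the brightest ones of HSP90AA1 and HSP90AB1 and the second joint one of HSP90B1. The joint one came to -1.35 in females and -1.36 with sex as a covariate. The smallest adjusted p of the 3 in limma was 0.296 in females and 0.272 with sex as a covariate.

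Among HSP70 genes, HSPA8, the constitutive cytosolic form, was measured by probe sets annotated jointly to HSPA8 and the small nucleolar RNAs SNORD14C and SNORD14D. The brightest of them ran from 3232 to 21686 (median 11228) in young adult and from 4270 to 24086 (median 11864) in old animals, and was 15168 and 7933 in AD-like animals. The ranges overlapped, with log2 differences of 0.35 ± 0.45 (SE) and -0.11 ± 0.67 (SE) for old against young adult and AD-like against old. The other 3 joint probe sets of HSPA8 had the opposite signs, with -0.16 to -0.07 for old against young adult and 0.11 to 0.92 for AD-like against old, and on each of them both AD-like values were above the old median. The one at 0.92 came to 0.89 in females, where its unadjusted p was under 0.05 (adjusted p = 0.380 in limma). Its values on the arrays without the poly-A control, 339 to 480, all lay above those with it, 52.7 to 321. AD-like F1, whose array had the control, gave that 321. Among the females only AD-like F2 lacked the control, so the value in females cannot separate the AD-like label from it. HSPA5, which is BiP of the endoplasmic reticulum, had a median of 1581 in young adult (range 1080 to 2358) and 1833 in old animals (range 1228 to 2758), with 2003 and 1994 in the AD-like pair. Its log2 difference of old from young adult was 0.25 ± 0.23 (SE). HSPA9, the mitochondrial form, lay between 257 and 507 (median 368) in young adult and between 380 and 683 (median 439) in old animals, all 10 of them above the young adult median, yet with overlapping ranges. Its log2 difference was 0.39 ± 0.20 (SE; adjusted p = 0.847 in limma) and came to 0.12 in females alone.

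HSPA1A and HSPA1B, the inducible HSP70 genes, shared 1 probe set with HSPA1L. Its signal was low throughout, from 30.8 to 153 (median 91.7) in young adult and from 27.6 to 204 (median 120) in old animals, with 103 and 125 in AD-like animals, and the log2 difference of old from young adult was 0.27 ± 0.39 (SE). HSPH1, an HSP110 that exchanges the nucleotide of HSP70, spread by its brightest probe set from 426 to 2433 (median 948) in young adult and from 231 to 1715 (median 562) in old animals, with a difference of -0.50 ± 0.42 (SE). The name of that probe set marks probes that can also match other transcripts. A second probe set of HSPH1 gave 0.13 ± 0.27 (SE).

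HSPA4, another HSP110, was the one chaperone gene past an unadjusted p of 0.05 between AD-like and old cortex. By its brightest probe set it was 277 and 310 in the AD-like animals, against 93.9 to 271 (median 140) in old and 116 to 283 (median 195) in young adult animals. Both AD-like values were above all 10 old values, of which old M3 was the highest. The log2 difference was 0.92 ± 0.33 (SE; 95% interval 0.23 to 1.62, adjusted p = 0.846 in limma) against old and 0.57 ± 0.35 (SE) against young adult animals. A second probe set of HSPA4 gave 143 and 112 in the AD-like pair and 14.3 to 232 (median 152) in old animals, a log2 difference of -0.00062 ± 0.76 (SE). Averaged over both probe sets the difference was 0.46, and without AD-like F2 the first probe set gave 0.85 and no longer had an unadjusted p under 0.05. Both are of the kind whose names mark probes that can also match other transcripts.

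Over all chaperones, 1 of 64 probe sets (1.56%) had a higher signal in AD-like than old cortex at an unadjusted p under 0.05, beside 1.22% of all probe sets, and 0 had a lower one, beside 3.62%. Both AD-like values lay above the old range for 2 of 64 (3.12%), beside 1.39% of all, and below it for 0, beside 1.63%. The second of the 2 was a dimmer probe set of HSPD1, with 682 and 708 against 339 to 587 in old animals, a log2 difference of 0.54 ± 0.30 (SE; adjusted p = 0.972 in limma). The log2 difference was above 0 for 35 of 64 (54.7%), beside 48.1% of all probe sets, and its median over the 34 genes was 0.11, beside -0.05 over the 8660 genes.

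**Figure D2:**
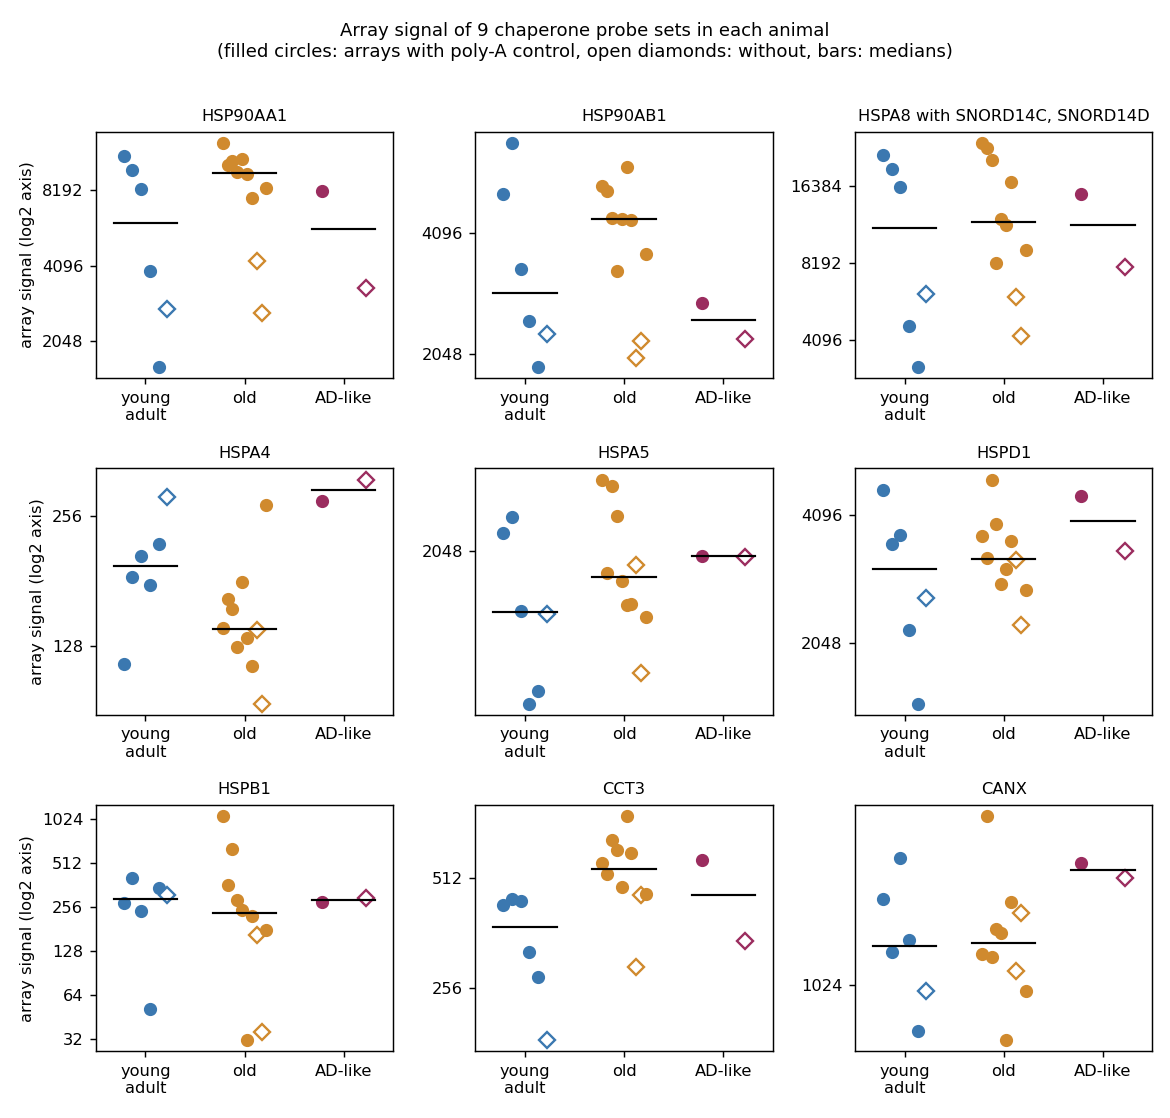
Array signal on a log2 axis of 9 chaperone probe sets in the 18 animals by group, with medians as bars and the 4 arrays without the poly-A control as open diamonds. HSPA4 in both AD-like animals (277 and 310) lies above all old animals (93.9 to 271), and 9 of 10 old animals exceed the median CCT3 signal of the young adults.

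Against young adult animals, 0 of 64 chaperone probe sets reached an unadjusted p under 0.05 with a higher signal in AD-like animals, beside 1.13% of all probe sets, and 0 with a lower one, beside 3.21%. Both AD-like values exceeded the young adult range for CCT2, DNAJC6 and HSPA12A, which made 3 of 64 (4.69%), beside 2.62% of all probe sets, and fell below it for 0, beside 2.97%. CCT2 was 554 and 557 against 302 to 547, DNAJC6 2024 and 1923 against 1038 to 1844, and HSPA12A 304 and 287 against 172 to 250. The log2 differences of the 3 genes lay between 0.39 and 0.45. The log2 difference was above 0 for 40 of 64 (62.5%), beside 51.3% of all, and its median over the 34 genes was 0.09.

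Of the HSP40 genes, the J-domain partners of HSP70, 0 of 6 with a probe set of their own had an unadjusted p under 0.05 in any comparison. DNAJA1 was 649 to 1053 (median 887) in young adult and 610 to 1278 (median 912) in old animals, and 1046 and 1572 in AD-like animals. The AD-like value of F2 stood above every other animal and that of F1 within both ranges, with a log2 difference of 0.51 ± 0.31 (SE; adjusted p = 0.972 in limma) from old animals. On the arrays with the poly-A control alone it was 0.27. DNAJB1, the classical partner of inducible HSP70, had medians of 338 and 299 in young adult and old animals and 334 and 285 in the AD-like pair, with log2 differences of -0.01 ± 0.24 (SE) and 0.00 ± 0.36 (SE) for old against young adult and AD-like against old. By their brightest probe sets, DNAJC6 (auxilin, which uncoats clathrin vesicles), DNAJC5 (the synaptic vesicle chaperone CSP alpha), DNAJA2 and DNAJB4 differed by -0.14 to 0.13 between old and young adult animals. A second, dim probe set of DNAJB4 gave 0.62 ± 0.49 (SE). The joint probe set of DNAJB6 and TMEM135, named after its values were seen, was 1400 to 3651 (median 1873) in young adult and 1874 to 4424 (median 2948) in old animals, a log2 difference of 0.54 ± 0.22 (SE; adjusted p = 0.836 in limma). The other joint probe set of this pair gave 0.01 ± 0.24 (SE).

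Of the small heat shock proteins, HSPB1 (HSP27) was the most variable of the 34 genes, with a residual SD between animals of 1.23 on the log2 scale. It ran from 51.4 to 403 (median 291) in young adult and from 31.2 to 1067 (median 233) in old animals, and was 278 and 292 in AD-like animals. Single animals set these ranges: old F1 and F3 were high, while young adult F4, old F6 and old M2 were low. CRYAB, alpha B crystallin of glia and muscle, was 271 to 1821 (median 815) in young adult and 478 to 1877 (median 1001) in old animals, with 1565 and 864 in the AD-like pair. The log2 differences of old from young adult were -0.12 ± 0.56 (SE) for HSPB1 and 0.47 ± 0.38 (SE) for CRYAB.

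HSPD1, the mitochondrial HSP60, by its brightest probe set ranged from 1474 to 4689 (median 3057) in young adult and from 2256 to 4962 (median 3227) in old animals, with 4537 and 3378 in AD-like animals. Its log2 difference was 0.21 ± 0.24 (SE) for old against young adult and 0.26 ± 0.36 (SE) for AD-like against old. The dimmer probe set of HSPD1 gave -0.28 ± 0.20 (SE) for old against young adult. Its cap HSPE1 did not pass the filter, with a signal of at most 229.

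The 5 measured subunits of the cytosolic ring CCT, which folds actin and tubulin, all had a log2 difference above 0 in old against young adult animals by their brightest probe sets, from 0.22 to 0.69. Of all probe sets 53.9% lay above 0. Brighter probe sets in general shifted the same way, with a median of 0.12 over the 6471 that passed a filter at 300. CCT3 was the 1 subunit with an unadjusted p under 0.05. It measured 184 to 449 (median 376) in young adult, 292 to 756 (median 544) in old and 576 and 344 in AD-like animals. Of the old animals, 9 of 10 exceeded the young adult median and 9 of 10 the highest young adult, with old M1 as the exception. The log2 difference was 0.63 ± 0.24 (SE; 95% interval 0.13 to 1.13, adjusted p = 0.836 in limma), and 0.59 on the arrays with the poly-A control alone. Without young adult M2 it was 0.47 and no longer had an unadjusted p under 0.05. CCT8 was 451 to 2670 (median 919) in young adult and 1080 to 2897 (median 1683) in old animals, all 10 above the young adult median, with a log2 difference of 0.69 ± 0.35 (SE). CCT2, CCT4 and CCT7 gave 0.22, 0.34 and 0.44, while a second probe set of CCT4 gave -0.47. The joint probe set of TCP1 and SNORA29 gave 0.51 ± 0.28 (SE). Between AD-like and old animals 4 of the 5 subunits lay below 0, from -0.40 to 0.16 in all. Of all probe sets 48.1% lay above 0 in that comparison, and the median over those that passed the filter at 300 was -0.14.

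The chaperones of the endoplasmic reticulum that serve glycoproteins and disulfide bonds had log2 differences below 0 for 3 of 4 genes in old against young adult animals, and none had an unadjusted p under 0.05. Of all probe sets 53.9% lay above 0. PDIA3, a disulfide isomerase bound by calreticulin and calnexin, was 708 to 1058 (median 873) in young adult and 234 to 1072 (median 629) in old animals, and 971 and 620 in AD-like animals. Only 1 of 10 old animals exceeded the young adult median, and the log2 difference was -0.50 ± 0.27 (SE; adjusted p = 0.847 in limma). PDIA4, a related isomerase, gave -0.60 ± 0.35 (SE) at low signals, with medians of 115 and 84.1. CALR (calreticulin) was 860 to 1165 (median 1101) in young adult and 649 to 1578 (median 848) in old animals, with 734 and 913 in AD-like animals, a difference of -0.28 ± 0.21 (SE) for old against young adult. CANX (calnexin) was the steadiest of the 34 genes, with a residual SD of 0.16. It stayed between 940 and 1305 in young adult and between 923 and 1410 in old animals, and was 1292 and 1256 in AD-like animals. The log2 difference of CANX was 0.01 ± 0.17 (SE; 95% interval from -0.34 to 0.36) for old against young adult, the narrowest interval among the chaperones.

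Cochaperones and the stress factor showed no common direction. PTGES3 (p23, which stabilises the closed form of HSP90) had medians of 281 and 343 in young adult and old animals and 520 and 314 in the AD-like pair, with a log2 difference of 0.46 ± 0.27 (SE) for old against young adult. FKBP4, an immunophilin of HSP90 complexes, had medians of 400 and 339 and AD-like values of 459 and 184, and its log2 difference of AD-like from young adult, -0.56 ± 0.41 (SE), was 0.063 without AD-like F2. BAG1, a nucleotide exchange factor of HSP70, was 269 to 542 in young adult, 196 to 621 in old and 304 and 273 in AD-like animals, a difference of -0.40 ± 0.37 (SE) for AD-like against old. A dimmer probe set of BAG1 gave 11.8 in AD-like F1 and 175 in F2, against 30.6 to 234 (median 199) in old animals. Its difference for AD-like against old was -1.25 ± 0.63 (SE; adjusted p = 0.972 in limma). Averaged over both probe sets the difference was -0.83. FKBP5, STIP1 (HOP, the bridge between HSP70 and HSP90) and STUB1 (the ubiquitin ligase CHIP) differed by -0.29 to 0.13 between old and young adult animals. HSF1 had a median of 154 in young adult and 151 in old animals and values of 103 and 106 in the AD-like pair, with a difference of -0.23 ± 0.39 (SE) for old against young adult.

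**Figure D3:**
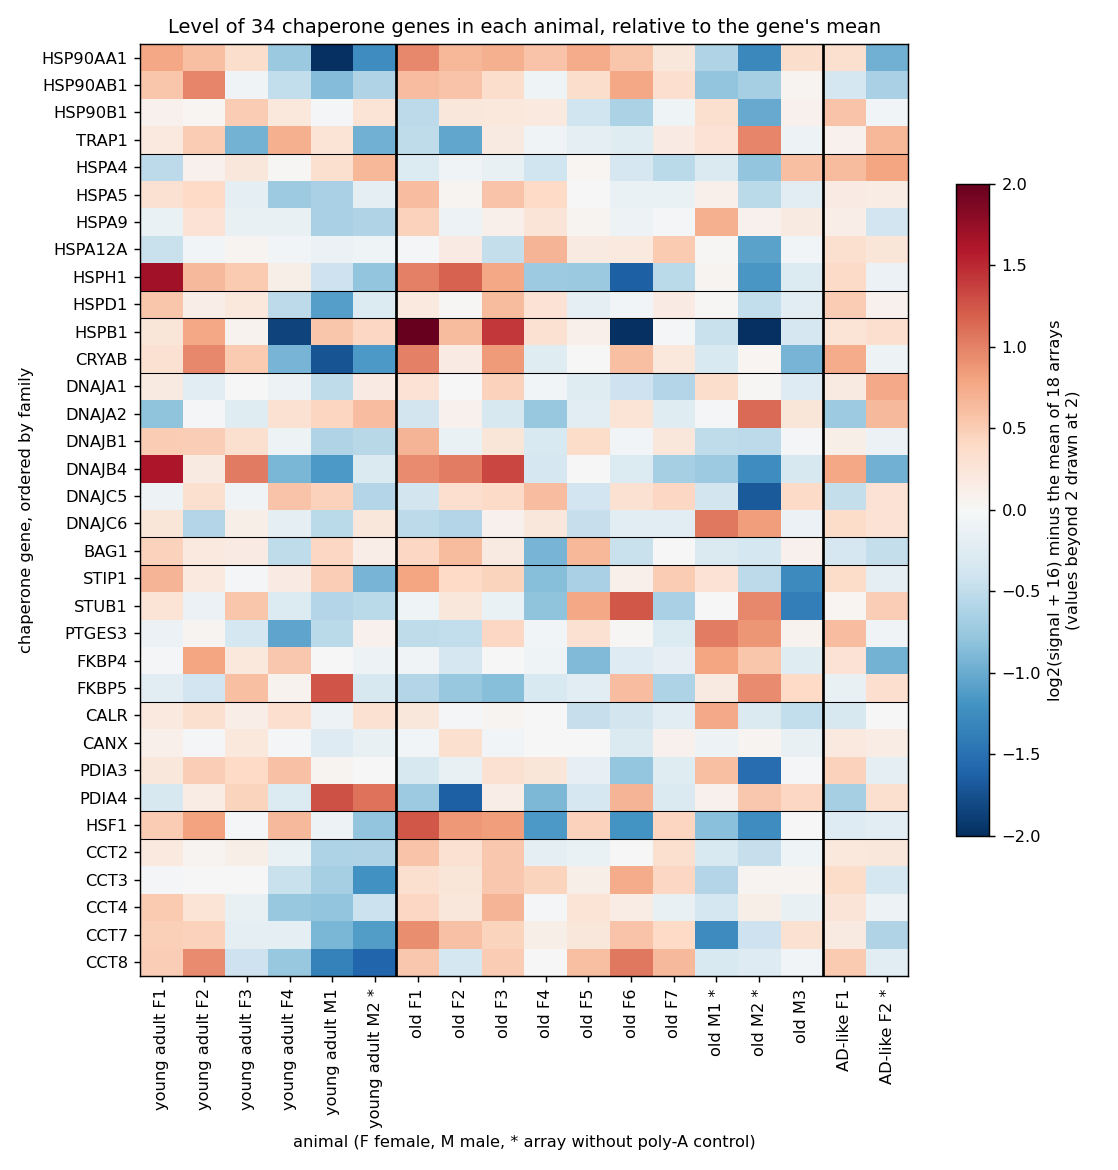
Level of the 34 chaperone genes in each of the 18 animals, as log2(signal + 16) minus the gene's mean over all arrays, with families separated by lines and the 4 arrays without the poly-A control marked by a star. CANX hardly varies, HSPB1 varies most, and HSP90AA1 is low in young adult F4, M1 and M2, old M1 and M2 and AD-like F2.

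As seen in the map of levels by animal, HSP90AA1, HSP90AB1 and several other bright members were low on the same few arrays. HSP90AA1 lay between 2657 and 4283 on the 4 arrays without the poly-A control, against a median of 9573 on the other 14, and HSP90AB1 between 2000 and 2286 against a median of 4419. Young adult F4 and M1, whose arrays had the control, were low as well, with 3885 and 1617 for HSP90AA1. Apart from AD-like F2, the animals without the control were male. Among males only old M3, whose array had the control, was high for HSP90AA1, at 8308. The part of sex in these levels was not tested. DNAJC6 ran the other way, from 1832 to 3262 without the control against a median of 1356 with it. Over the 64 chaperone probe sets, 0 lay wholly lower on the arrays without the control, beside 1.8% of all probe sets, 2 wholly higher (one of DNAJA1 and one annotated jointly to HSPA8), beside 2.98%, and the median was lower for 38, beside 52.3% of all. Of these 4 arrays, 1 was young adult, 2 were old and 1 was AD-like, and their part in the differences between groups was not tested beyond the values with and without them.

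The median residual SD of the 34 genes between animals of 1 group was 0.49 on the log2 scale, beside 0.60 over the brightest probe sets of all 8660 genes. Over all 64 chaperone probe sets it was 0.56, beside 0.62 over all 14567. Probe sets of the same gene often disagreed. Of the 17 genes with at least 2 kept probe sets of their own, the differences of old from young adult shared a sign in 5, those of AD-like from old in 13 and those of AD-like from young adult in 11. HSP90AA1, DNAJA1, CALR, CANX and CCT2 were the 5 with a shared sign in the comparison of old and young adult animals.

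**Figure D4:**
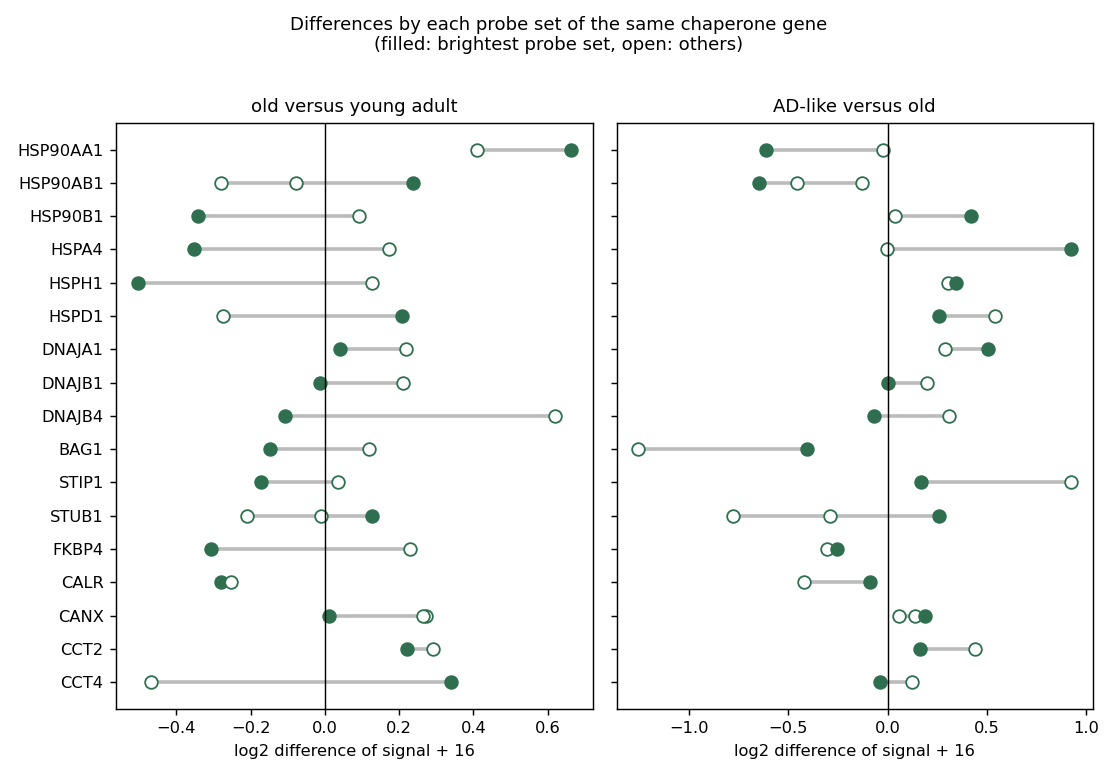
Log2 differences of signal + 16 by each kept probe set of the 17 chaperone genes with more than 1, for old against young adult (6 and 10 animals) and AD-like against old (2 and 10 animals). Filled points are the brightest probe sets and open points the others. For HSPA4 the filled point stands at 0.92 and the open one at -0.00062 in AD-like against old.

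Genes whose proteins work together were compared across the 18 animals in 5 pairs, with permutation tests (100000 resamples, two-sided) adjusted over the 5. CCT3 and the joint probe set of TCP1, both subunits of CCT, had a Pearson r of 0.67 (p = 0.00352, adjusted p = 0.0176) and a Spearman rho of 0.34 (p = 0.171, adjusted p = 0.427). Without the 2 animals farthest from the median of CCT3, r was 0.11 (p = 0.68), so the relation rests on those animals. It was 0.38 on the 14 arrays with the poly-A control. HSP90AA1 and HSPH1 gave an r of 0.42 (p = 0.0838, adjusted p = 0.209) and a rho of 0.53 (p = 0.0266, adjusted p = 0.133), and an r of 0.32 without the 2 farthest animals. For HSPA5 with HSP90B1, CALR with CANX, and the joint probe set of HSPA8 with DNAJA1, r was 0.14, -0.02 and 0.12 and rho 0.03, -0.03 and 0.17, with adjusted p of 0.779 to 0.941 for r and 0.812 to 0.922 for rho, and r of 0.26, -0.02 and -0.07 without the 2 farthest animals. The pairs with HSPE1, CDC37, and HSPB8 with BAG3 could not be computed for want of a kept probe set.

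**Figure D5:**
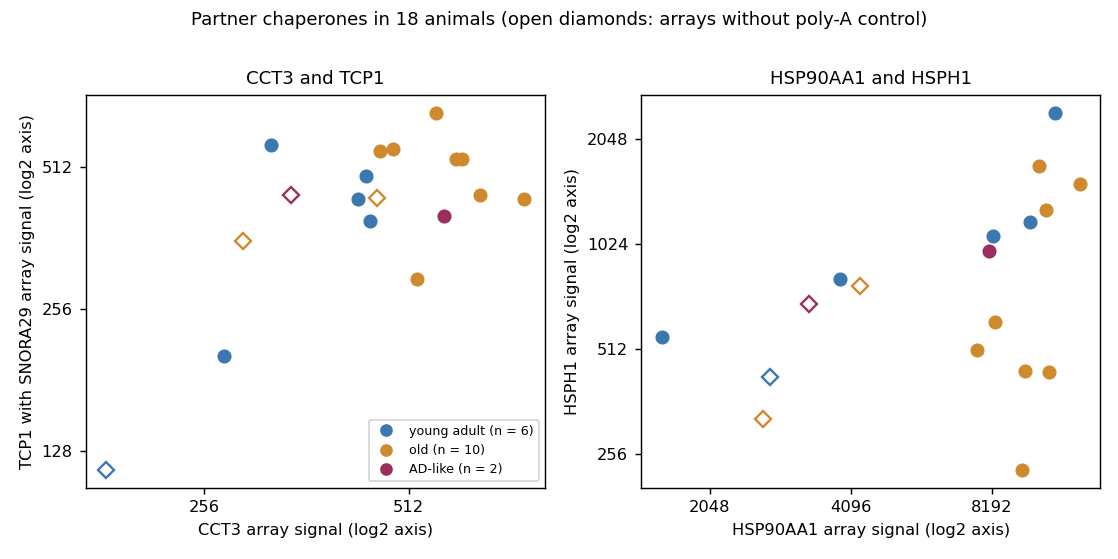
Array signal on log2 axes of CCT3 against TCP1 (annotated jointly with SNORA29) and of HSP90AA1 against HSPH1 in 18 animals, with open diamonds for arrays without the poly-A control. A pair of young adult animals at the lower left carries most of the relation of CCT3 and TCP1 (r 0.67, and 0.11 without the 2 farthest animals).

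Other genes of protein folding and quality control were counted from a list of 74, of which 48 had a probe set of their own above the filter. At an unadjusted p under 0.05, old animals had 2 of them (4.17%) higher and 1 (2.08%) lower than young adults, beside 3.49% and 2.42% of all probe sets. In AD-like against old animals these were 0 and 2 (4.17%), beside 1.22% and 3.62%, and in AD-like against young adult animals 1 and 1 (2.08% each), beside 1.13% and 3.21%. None passed adjustment in limma in these 3 comparisons, and the genes below are those of the list with the smallest p, given as values. GRPEL1, the nucleotide exchange factor of HSPA9, had the smallest p of the list for old against young adult. It averaged 78.9 ± 59.2 (SD, n = 6) for young adult and 163 ± 45.5 (SD, n = 10) for old animals. The young adult average lay below the signal required by the filter, so the change is measured from dim values. The log2 difference was 1.10 ± 0.31 (SE; adjusted p = 0.836 in limma). DNAJC1, a J-domain protein of the endoplasmic reticulum, gave 0.95 ± 0.41 (SE) and HSPA4L, an HSP110, -0.68 ± 0.32 (SE). HSPA14 and LONP1, a mitochondrial protease, gave -0.87 ± 0.34 (SE) and -1.01 ± 0.44 (SE) for AD-like against old animals.

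Immediate early genes, which respond to activity and handling, and markers of cell types were set beside the chaperones. Of 13 immediate early genes, 10 were kept and 2 of them lay above 0 in AD-like against old animals, beside 48.1% of all probe sets, with a median log2 difference of -0.59. DUSP1, 1 of the 10 (10%), was lower in AD-like than old animals at an unadjusted p under 0.05, beside 3.62% of all probe sets. It gave -1.27 ± 0.47 (SE; adjusted p = 0.911 in limma). Against young adults it was again the 1 lower, beside 3.21%, at -1.65 ± 0.50 (SE; adjusted p = 0.704 in limma). Their summed signal was 8558 to 9883 in AD-like, 6479 to 20664 in old and 5692 to 23508 in young adult animals. All 9 neuron markers were kept, with a summed signal of 24968 to 56820 in AD-like, 36233 to 66544 in old and 19464 to 65454 in young adult animals. Kept markers numbered 5 of 7 for astrocytes, 6 of 7 for oligodendrocytes, 1 of 8 for microglia, 3 of 6 for endothelium and 1 of 4 for erythrocytes. Their median log2 differences of old from young adult animals were 0.09, -0.33, 0.77, -0.07 and 0.25, and 0.18 for neurons, and those of AD-like from old animals 0.49, 0.07, 0.19, -0.10 and -0.35, and -0.10 for neurons. No marker passed adjustment in limma. At an unadjusted p under 0.05, the endothelium marker TEK was higher in AD-like than old animals, beside 1.22% of all probe sets. It averaged 215 ± 200 (SD, n = 2) and 54.1 ± 66.3 (SD, n = 10), while the endothelium markers PECAM1 and FLT1 gave -0.41 and -0.10. The 1 microglia marker was higher in old than young adult animals at an unadjusted p under 0.05, beside 3.49% of all probe sets. The part of cell composition in the chaperone values was not tested.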

How the data were processed

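RNA had been labelled from 2 µg of total RNA per animal, per the labels. Arrays were scanned and summarised by the authors in GCOS 1.2 with the MAS5 algorithm, and in the deposited intensity values every array has a mean of 100 after trimming 2% at each end. Detection calls were not used here. Probe sets were named from the platform annotation, where 12435 kept probe sets had 1 symbol, 576 several and 1556 none, and 62 control probe sets were left out. Chaperone probe sets with several symbols were counted and described as joint.

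Signals of at least 150 on at least 3 arrays were required, and log2(signal + 16) was fitted with limma 3.58.1 in R 4.3.3 in 1 model of the 3 groups, tested on simulated data. A gene is represented by its kept probe set with the highest mean. The AD-like animals, 2 in number, limit the precision. Correlations used Python 3.11.15 and numpy 2.4.6, and figures matplotlib 3.10.9. The chaperone list, the named genes (15 fixed, and the 8 with the smallest p per comparison), the pairs, the protein folding list, the immediate early genes and the marker lists were chosen with earlier results of these data known. Alternatives were the offset, normalization, filter, variance model, covariates, blocks, females alone, the methods' t-test and leaving out each animal. The labels do not say that replicate numbers pair animals. Of 10 same-numbered pairs, 7 correlated above 0.1, and all 10 ran from -0.27 to 0.47. Pairs of different numbers were not set beside them, so this check cannot show whether the numbers pair animals.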

Additional observations from a re-analysis of the deposited data

Results flagged for a closer look

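Within-group values of 22 named genes were checked in the 6 young adult and 10 old animals, 44 checks in all, and 3 stood apart by Dixon's rule, which chance alone passes in about 1 of 20 groups. HSPB1 in young adult F4 was 51.4, with the next lowest young adult at 241. BAG1 in the same animal was 269, with the next at 425. CCT3 in old M1 was 292, with the next old animal at 460, and that array lacked the poly-A control. Without young adult F4 or old M1 no chaperone probe set passed adjustment. The age difference was also compared between males and females, and no chaperone gene passed adjustment in that interaction (smallest adjusted p = 0.981 in limma, 2 of 34 genes with an unadjusted p under 0.05).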

How the results depend on the processing

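No chaperone probe set passed adjustment in any comparison under any of the alternatives, the methods' t-test included. Counts at an unadjusted p under 0.05 are small, so 1 probe set moves them, and those over all 14567 probe sets moved as well. For old against young adult, the higher over all were 509 in the main fit, 682 with sex as a covariate and 785 with the poly-A block. For AD-like against young adult, the higher over all were 456 in females beside 165 in the main fit. The lower over all were 1147 with the replicate block beside 467. Without a filter all 116 chaperone probe sets are counted, and a filter at 100 lets in more than the 64. For old against young adult, the 2 higher became 4 with sex as a covariate, 5 with the poly-A control as a block, 1 in females and 1 with the replicate block, and the 0 lower became 1 with quantile normalization, no filter, a filter at 100 or array weights, and 2 in females, with the replicate block or on arrays with the poly-A control. For AD-like against old, the 1 higher became 3 with quantile normalization, 4 with no filter, 0 with a filter at 300 or on arrays with the poly-A control, and 2 with a filter at 100, in females, with the replicate block, the poly-A block or the methods' t-test. The 0 lower became 1 with an offset of 1, a trended and robust variance, array weights, the GAPDH ratio or the poly-A block. That 1 was the dimmer probe set of BAG1 each time. It became 3 with sex as a covariate or in females (all of HSP90 genes, one annotated jointly with MIR3652), and 8 with the replicate block. Over all 14567 probe sets the lower were 527 in the main fit, 1110 with sex as a covariate, 1180 in females and 1434 with the replicate block. For AD-like against young adult, the 0 higher became 4 in females, 1 with the replicate block, the poly-A block or its arrays, and 2 with the t-test, and the 0 lower became 1 with sex, in females or with the t-test, 2 on arrays with the control and 6 with the replicate block. The median difference of AD-like from old, 0.11, was -0.32 with the replicate block. That block sets AD-like F1 and F2 against the animals of the same label, although the labels do not say that these are paired. The cause of these shifts was not tested.

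Leaving out each animal gave 1 to 5 higher and 0 to 1 lower for old against young adult (5 without young adult F1, 4 without young adult F2 or old M1, 1 without young adult M1 or M2), 0 to 1 higher and 0 to 2 lower for AD-like against old (0 higher without AD-like F2), and 0 to 1 higher and 0 to 3 lower for AD-like against young adult. Median differences ran from -0.02 to 0.08, 0.05 to 0.15 and 0.06 to 0.26. HSP90AA1 for AD-like against old, -0.61, ran from -1.25 without AD-like F1 to 0.026 without AD-like F2, FKBP4 for AD-like against young adult, -0.56, from -1.19 to 0.063 likewise, and HSPA9 for AD-like against old turned from -0.29 to 0.029 on arrays with the poly-A control. Of the 24 differences of the genes with the smallest p per comparison, the other 21 kept their sign. Over all 34 genes, the sign held under every alternative for 17 in old against young adult, 11 in AD-like against old and 15 in AD-like against young adult animals.

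The r of HSPA5 with HSP90B1 turned to -0.078 on arrays with the poly-A control, a setting chosen after seeing the data. That of CALR with CANX became 0.51 with quantile normalization, 0.053 in old animals, 0.083 within groups and 0.20 on arrays with the control, and that of HSPA8 with DNAJA1 -0.14 with quantile normalization and -0.067 without the 2 farthest animals. HSP90AA1 with HSPH1 passed within groups (0.59), and CCT3 with TCP1 no longer passed in old animals (0.28), without the 2 farthest (0.11) or on arrays with the control (0.38). Array number limits all of these, above all the 2 AD-like animals.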
